A study of Mus musculus with 8 samples.

Results

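The epicardial and mesothelial markers Upk3b, Upk1b, Msln, Wt1, Krt8, Krt18, Krt19 and Tcf21 were read in left ventricles of 12-month-old mice. They were found by gene symbol among 25697 bead array probes of 17850 genes. Of the 8 genes, 5 stood under their present symbol with 8 probes. The other 3, all keratins, stood under older symbols (Krt2-8, Krt1-18 and Krt1-19) that RefSeq pairs with Krt8, Krt18 and Krt19, which brought the set to 11 probes. The mice were 4 animals heterozygous for a knock-in allele, called knock-in mice here, and 4 wild-type littermates. All were on the Swiss Agouti background, and the tissue was left ventricle together with septum, 1 array per mouse. The comparison asks how the allele, studied for fibrosis and hypertrophy of the ventricle, is reflected in transcripts at this age.

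The heart is covered by the epicardium, a single sheet of mesothelium that continues into the lining of the pericardial cavity. Mesothelial cells carry simple epithelial keratins together with surface proteins such as mesothelin and some uroplakins. The transcription factors Wt1 and Tcf21 mark the embryonic epicardium, and Tcf21 stays on in cardiac fibroblasts that descend from it. The sheet is thin beside the mass of myocytes, so its transcripts in a ventricle depend on how much surface was sampled as well as on the level per cell. In bulk tissue fewer cells of a type and less RNA per cell cannot be told apart.

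On these arrays 2 mice stood apart in the markers, 1 of each genotype. Knock-in mouse 3 and wild type mouse 2 were the 2 highest mice in 7 of the 8 genes, and Tcf21 was the exception. Among the 5 genes detected widely enough to be tested this held for 4, beside 10.3% of all 8146 genes tested. The other 3 (Msln, Krt18 and Krt19) lay close to background and were detected in no mouse but these. For them no share over all genes is given. Over all genes, knock-in mouse 3 also had the lowest mean correlation with the other arrays (0.95, against 0.97 to 0.98), while wild type 2 lay at 0.97. Between 10094 and 11545 probes were detected per array at a detection p under 0.01, most of them in knock-in 3. The number of arrays, 4 per genotype, limits the precision of every difference given here. Results are therefore given with all mice, without wild type 2 and without both mice.

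Detection varied by gene. Of the 11 probes, 6 were detected on all 8 arrays, 4 on 1 to 3 arrays and 1 (of Upk1b) on 0. Knock-in 3 detected 10 of the probes and wild type 2 detected 9. Upk3b, Upk1b, Wt1, Krt8 and Tcf21 passed the requirement of detection on at least 4 arrays and entered the genotype test. Msln, Krt18 and Krt19 did not pass it and are described by their values.

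RefSeq (build GRCm38.p6) gave a promoter window for 4 of the 8 genes. The 250 bases before the start are shown for Upk3b and Krt8, which were high in the same 2 mice, and for Tcf21, which was not. Capitals mark the letters GGAATG or its reverse complement, a core that TEAD factors are known to bind.
Upk3b, chr5:136038246-136038495, plus strand: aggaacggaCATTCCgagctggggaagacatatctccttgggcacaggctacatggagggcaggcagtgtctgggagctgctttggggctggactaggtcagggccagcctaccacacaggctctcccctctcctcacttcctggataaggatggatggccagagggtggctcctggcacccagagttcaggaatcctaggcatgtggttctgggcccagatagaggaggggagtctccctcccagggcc
Krt8, chr15:102004343-102004592, minus strand: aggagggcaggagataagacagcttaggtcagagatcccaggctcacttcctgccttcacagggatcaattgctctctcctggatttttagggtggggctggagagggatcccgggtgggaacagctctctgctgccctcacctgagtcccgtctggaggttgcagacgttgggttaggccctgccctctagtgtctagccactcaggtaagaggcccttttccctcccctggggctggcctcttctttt
Tcf21, chr10:22820144-22820393, minus strand: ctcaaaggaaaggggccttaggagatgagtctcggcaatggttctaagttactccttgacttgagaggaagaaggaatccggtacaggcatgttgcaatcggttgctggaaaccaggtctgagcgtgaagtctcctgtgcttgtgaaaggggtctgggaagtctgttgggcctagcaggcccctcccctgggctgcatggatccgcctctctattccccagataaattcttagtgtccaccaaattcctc

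Both strands of the 4 windows, Krt18 included, were searched for 5 motifs. GGAATG was found once, in Upk3b, and 12.6% of 32851 windows of the same length hold it. This motif was chosen after the sequences had been read. The GC box GGGCGG (32.7% of windows), the WT1 and EGR site GCGGGGGCG (2.57%), the E-box CAGCTG (13%) and the TATA box TATAAA (12.4%) were in none of the 4. That says only that these letters are not in these windows. The motifs do not overlap one another in the sequences shown.

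**Figure D1:**
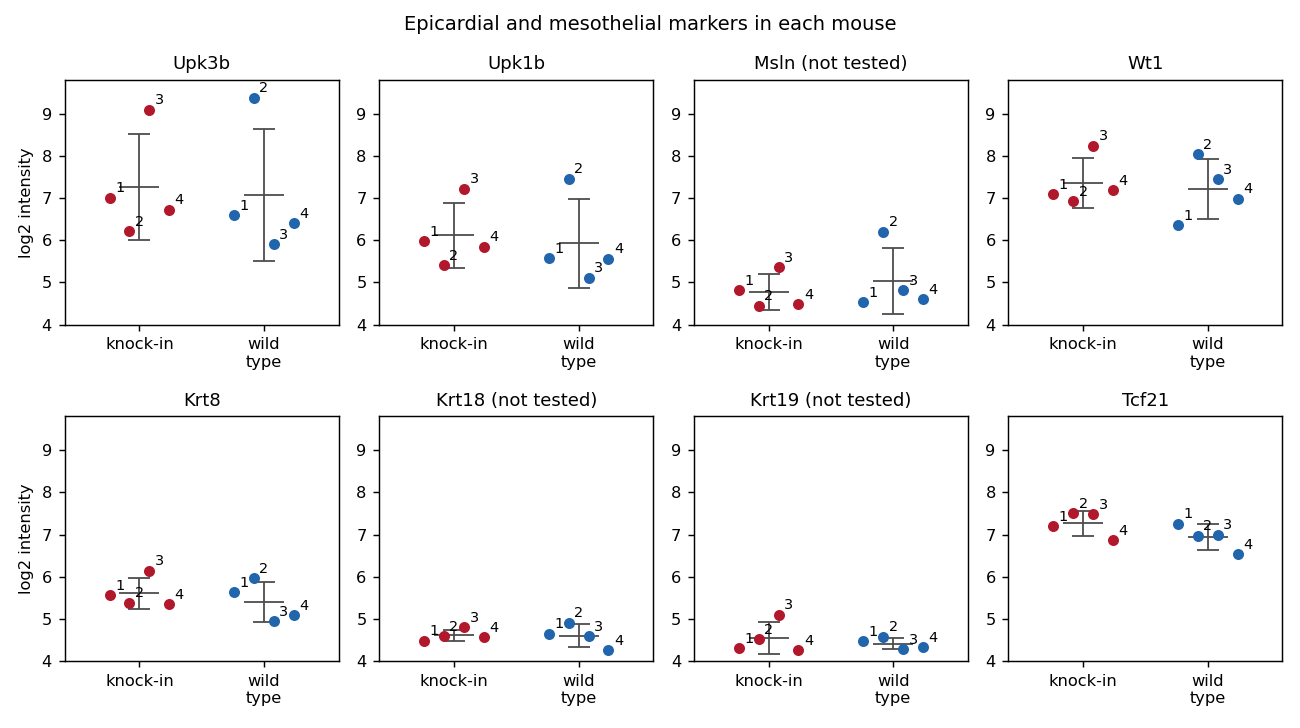
Normalized log2 intensity of each marker gene (y axis) in the 4 knock-in and 4 wild-type ventricles (x axis); numbers are mouse numbers, and horizontal marks with bars are the group mean and SD. Knock-in 3 and wild type 2 are the top 2 mice in every panel but that of Tcf21; for Upk3b they lie at 9.09 and 9.37, against 5.91 to 7.01 in the other 6 mice.

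Uroplakins are membrane proteins best known from the bladder surface, and Upk3b and the tetraspanin Upk1b are also made by mesothelium. Upk3b had a deposited intensity of 117, 52.2, 544 and 105 in knock-in mice 1 to 4, against 57.3, 702, 45.7 and 57.7 in wild types 1 to 4. Knock-in 3 and wild type 2 were far above the others, and the genotypes overlapped. In the authors' normalized values knock-in 3 was at 6.998 times and wild type 2 at 8.58 times the median of the other 6. On the normalized log2 scale Upk3b averaged 7.26 ± 1.26 in knock-in mice and 7.07 ± 1.56 in wild types (SD, n = 4 each).

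The other Upk3b probes had the same 2 mice on top. The second probe, also detected on all 8 arrays, read 61.2, 21.7, 307 and 60.4 in knock-in mice and 52.6, 425, 37.6 and 31.6 in wild types. The third, detected on 3 arrays, read 36.8 in knock-in 3 and 43.1 in wild type 2, and at most 16.2 elsewhere. As a description, the brighter pair of probes correlated at r = 0.98 over 8 mice and 0.71 over the 6 mice without these, on the log2 scale. The third, dim probe correlated with them at 0.89 and 0.86 over 8 mice, but at -0.07 and -0.24 over the 6 mice.

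Upk1b followed the brightest Upk3b probe mouse by mouse. Its detected probe read 45.9, 23.4, 149 and 47.3 in knock-in mice, against 23.1, 177, 19.4 and 26.6 in wild types. Again 1 mouse of each genotype stood out. The order of all 8 mice in Upk1b was that of the brightest Upk3b probe on the log2 scale (Spearman rho = 1.00). Upk1b averaged 6.11 ± 0.78 in knock-in mice and 5.93 ± 1.04 in wild types on the log2 scale (SD, n = 4 each). Its other probe lay below 0 on all arrays. The bladder uroplakins Upk1a, Upk2 and Upk3a were detected on 0 arrays.

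Mesothelin, Msln, is a surface glycoprotein that mesothelial cells anchor in their membrane. It read 11.1, 4.32, 32.7 and 5.91 in knock-in mice, against 5.58, 65.5, 12.7 and 7.25 in wild types. Its detection p was under 0.01 in knock-in 3 and wild type 2 alone. Wild type 2 was the highest mouse here, at 6.20 on the log2 scale, 0.84 above knock-in 3.

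Wt1, a zinc finger factor needed for epicardial cells to form and to detach, was detected on every array. It read 125, 95.5, 309 and 154 in knock-in mice, against 47.3, 274, 166 and 95.8 in wild types. Knock-in 3 was highest and wild type 2 second, but the step was smaller than for the uroplakins. Knock-in 3 was at 2.48 times and wild type 2 at 2.14 times the median of the other 6 in the authors' normalized values. Wt1 averaged 7.36 ± 0.60 in knock-in mice and 7.20 ± 0.71 in wild types on the log2 scale (SD, n = 4 each).

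Keratins 8, 18 and 19 form the filaments of simple epithelia, with Krt8 pairing with Krt18 or Krt19. Krt8 read 29.8, 22.9, 67.9 and 28.2 in knock-in mice, against 24.8, 53.8, 15.4 and 15.5 in wild types. It was thus also highest in knock-in 3 and wild type 2, and it averaged 5.62 ± 0.36 in knock-in mice and 5.41 ± 0.48 in wild types on the log2 scale (SD, n = 4 each). Its partners were dim. Krt18 was detected in the same 2 mice only, at 16.1 in knock-in 3 and 16.4 in wild type 2, and it was at most 8.31 in the others. Krt19 was detected in knock-in 3 only, at 24.9, while wild type 2 read 8.29. On the log2 scale Krt19 was 5.11 in knock-in 3 and 4.27 to 4.58 elsewhere, close to the lowest value of the scale, 4.10, where differences are compressed.

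Tcf21, a helix-loop-helix factor of epicardial descendants and fibroblasts, had another order of mice. It read 137, 152, 181 and 118 in knock-in mice, against 97.5, 123, 117 and 65.6 in wild types. After normalization knock-in 2 (7.51) and knock-in 3 (7.49) were highest, and wild type 2 (6.98) ranked sixth of 8. Tcf21 averaged 7.27 ± 0.30 in knock-in mice and 6.95 ± 0.30 in wild types on the log2 scale (SD, n = 4 each).

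Beside these counts stands the background. Among the 5 genes tested, knock-in 3 and wild type 2 were the 2 highest mice in 4, while this was so in 10.3% of the 8146 genes tested. The genes had been chosen with results of wild type 2 known, so this is a description.

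No marker passed the test between genotypes. With limma over 8146 genes, 0 of the 5 markers and 0% of all genes reached an adjusted p under 0.05. At an unadjusted p under 0.05 there were also 0 of 5 markers, against 4.16% of all genes (2.22% higher and 1.94% lower in knock-in mice). All 5 markers had a positive difference (knock-in minus wild type), as had 53.1% of all genes, with a median of 0.19 log2 units against 0.01 over all genes. The genotypes overlapped in all 5 markers, and did not overlap in 2.61% of all genes.

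The intervals of the differences were wide. Upk3b differed by 0.19 (95% interval -1.56 to 1.95, adjusted p = 0.999 with limma), and Upk1b by 0.19 (-0.96 to 1.34, adjusted p = 0.999 with limma). Wt1 differed by 0.16 (-0.68 to 1.00) and Krt8 by 0.21 (-0.37 to 0.78). Tcf21 had the largest difference, 0.32 (-0.12 to 0.76), with an adjusted p of 0.983 with limma and an exact permutation p of 0.2, two-sided. The second Upk3b probe differed by -0.16 (-1.74 to 1.43), so the probes of this gene did not share a sign. Only 0.368% of the genes tested had a larger SE than Upk3b, whose SE was 0.79 against a median of 0.18.

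Without wild type 2 the differences of the uroplakins were larger. Upk3b then differed by 0.96 (95% interval -0.36 to 2.29) and Upk1b by 0.70 (-0.15 to 1.55), with adjusted p = 0.778 and 0.773 with limma. Wt1 then stood at 0.43 (-0.36 to 1.23), Krt8 at 0.39 (-0.15 to 0.94) and Tcf21 at 0.33 (-0.18 to 0.84). Without knock-in 3 instead, Upk3b was at -0.42 (-2.02 to 1.18), Upk1b at -0.18 and Wt1 at -0.14, so the sign of these 3 turned. Without both mice Upk3b was at 0.35 (-0.21 to 0.91), Upk1b at 0.33 (-0.13 to 0.78), Wt1 at 0.14, Krt8 at 0.22 and Tcf21 at 0.26. None of these fits gave a marker an adjusted p under 0.05, and the test was two-sided throughout. Tcf21 lay between 0.25 and 0.33 over these fits, but at 0.09 (-0.30 to 0.48) with array weights, where Upk1b had the largest difference (0.23).

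**Figure D2:**
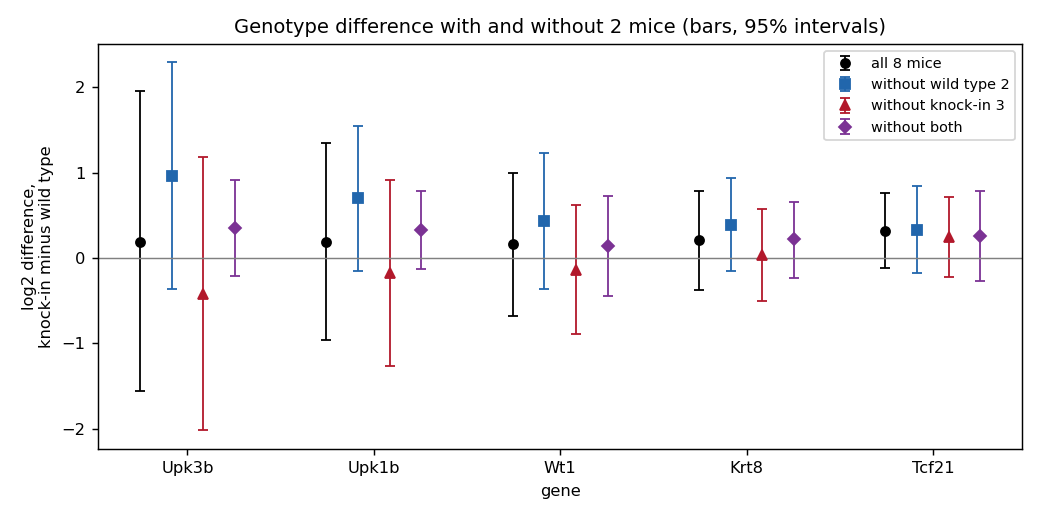
Difference in log2 intensity, knock-in minus wild type (y axis), of the 5 tested genes (x axis) with all 8 mice, without wild type 2, without knock-in 3 and without both; bars are 95% intervals from limma. All intervals cover 0, and Upk3b runs from -0.42 without knock-in 3 to 0.96 without wild type 2.

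The 3 dim markers were fitted without the detection filter. Msln differed by -0.26 (95% interval -1.15 to 0.63) with all mice and by 0.13 without wild type 2. Krt18 differed by 0.01 (-0.31 to 0.33), and by 0.12 without wild type 2. Krt19 differed by 0.13 (-0.29 to 0.55) with all mice, by 0.19 without wild type 2 and by -0.05 without knock-in 3. None passed the test.

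Covariation was examined over the 10 pairs of the 5 tested genes, with exact permutation tests, two-sided, adjusted over the 10 pairs. The genes had been chosen with earlier results of these data known, those of wild type 2 among them. The p-values of all pairs are therefore descriptive. By the brightest probe of each gene, Upk3b and Upk1b varied together over 8 mice, and within the 7 and the 6 mice that are subsets of these. Their Pearson r was 1.00 over 8 mice (exact permutation p = 2.48e-05, the smallest that 8 mice allow; adjusted p = 0.000248) and 0.99 over the 7 mice without wild type 2 (adjusted p = 0.00198, exact permutation). Over the 6 mice without knock-in 3 and wild type 2, r was 0.98 (exact permutation p = 0.00139, adjusted p = 0.0139). Spearman's rho was 1.00 over 8 mice (adjusted p = 0.000496, exact permutation). With all 8 mice in the same order, rho was bound to be 1.00 over the 7 and the 6 mice as well. Those 2 values are therefore no further support. The second Upk3b probe was not tested against Upk1b, and its order over these 6 mice was another. That probe was highest in wild type 1 (6.48), and Upk1b in knock-in 1 (5.98), on the log2 scale.

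The other relations were weaker or rested on the 2 high mice. Krt8 with Upk3b and Krt8 with Upk1b passed by Pearson's r over 8 mice (adjusted p = 0.0114 and 0.0142, exact permutation), and over 7 mice without wild type 2. By Spearman's rho, 0.81 for both pairs over 8 mice, they did not pass (adjusted p = 0.0726, exact permutation). Over the 6 remaining mice r was 0.75 and 0.66, with an adjusted p of 0.375 for both by exact permutation. Wt1 with Upk3b reached an adjusted p of 0.0529 over 8 mice by exact permutation (rho = 0.52, adjusted p = 0.393), and r was -0.30 over the 6 mice, so that relation rests on the 2 high mice. Tcf21 had r between 0.10 and 0.53 with the other genes over 8 mice, and no pair with it passed. Of the 10 pairs, 3 passed by r over 8 mice, 3 over 7 and 1 over 6. Without wild type 3, 5 passed.

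**Figure D3:**
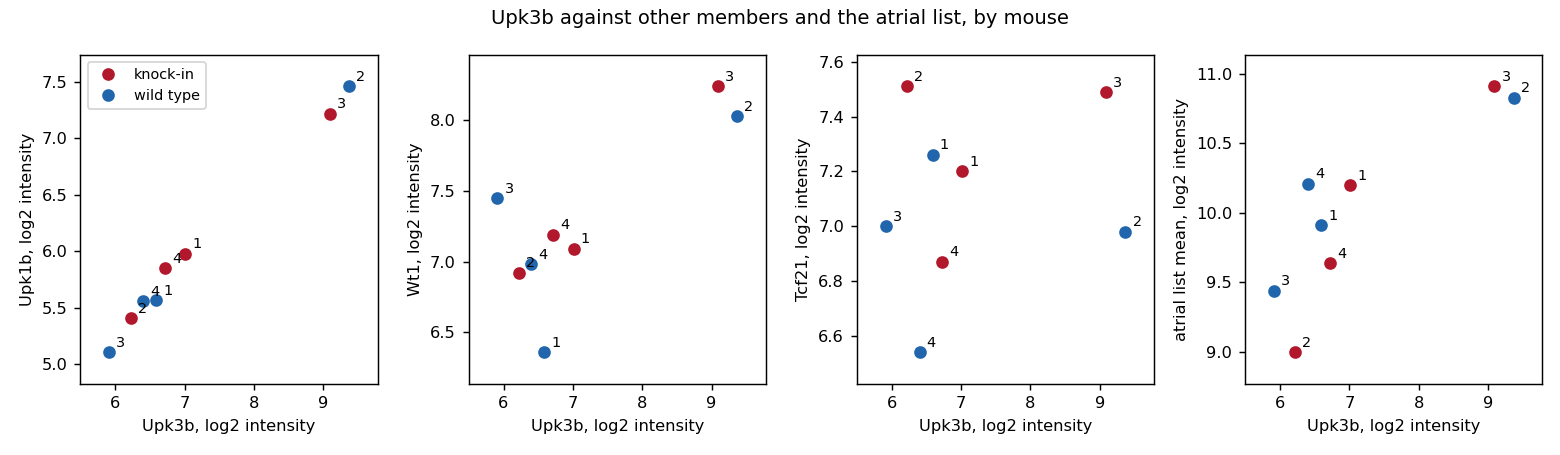
Upk3b in log2 intensity (x axis) against Upk1b, Wt1, Tcf21 and the mean of 8 atrial genes in log2 intensity (y axes); each point is a mouse with its number, knock-in in red and wild type in blue. By the brightest probe of each gene, Upk1b follows Upk3b over the whole range. Wt1 and Tcf21 show no such order among the 6 mice with Upk3b between 5.91 and 7.01.

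A wider list of 24 other mesothelial and epicardial genes had 20 on the array, 15 detected on at least 1 array and 8 tested. Knock-in 3 and wild type 2 were the 2 highest mice in 5 of these 8, beside 10.3% of all genes. The 5 were podoplanin (Pdpn), the membrane glycoprotein Gpm6a, dermokine (Dmkn), the growth factor binding protein Igfbp6 and prostacyclin synthase (Ptgis). Pdpn was 10.15 in knock-in 3 and 9.90 in wild type 2, against 8.62 to 9.05 in the other 6 mice on the log2 scale. Ptgis was 9.58 and 10.03 in these mice, against 8.36 to 8.66. Igfbp6 was 8.19 and 8.33, against 6.17 to 7.16, and Dmkn 6.58 and 6.66, against 4.58 to 5.48.

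The tested remainder of that list did not share the order. The tight junction gene Cldn15 was highest in knock-in 4 (6.73) and Nkain4 in wild type 1 (4.93). The protease inhibitor Slpi was 10.26 in knock-in 3 and 8.88 in wild type 1 but 4.69 in wild type 2. None of the 8 passed the genotype test (limma), with 5 higher, 3 lower and a median difference of 0.22; at an unadjusted p under 0.05 there were also 0. Of the 7 dim genes, 3 had knock-in 3 and wild type 2 on top. A dim gene was kept if it was detected on at least 1 array, so a high value in these mice could itself bring it in. The count is therefore a description, with no share over all dim genes beside it. Lrrn4 was 5.68 in knock-in 3 and 4.96 in wild type 2, against 4.31 to 4.77 in the other 6 mice. The epithelial factor Bnc1 was 5.19 and 5.70 in these mice, against 4.17 to 4.81, and Krt14 was 4.65 and 4.68, against 4.28 to 4.43. Aldh1a2, which makes retinoic acid in epicardium, was 5.07 and 4.86 in these mice and up to 5.00 in the others. Rspo1 lay between 4.45 and 4.78, Krt7 between 4.28 and 5.11 and Anxa8 between 4.24 and 4.85 over all mice.

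Markers of other cell types moved with the 2 high mice as well. Atrial myocyte genes were highest in them for 6 of 8 tested members, beside 10.3% of all genes tested. The atrial light chain Myl4 was 14.26 in knock-in 3 and 14.00 in wild type 2, against 10.91 to 13.19 in the other 6, and sarcolipin (Sln) 13.36 and 13.04, against 9.48 to 11.87. Nppa was 14.51 in both, near the top of the scale at 14.61. The summed normalized intensity of the atrial list ran from 23844 to 59356 in knock-in mice and from 25759 to 55275 in wild types. Their part in the level of the markers was not tested.

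Smooth muscle and mural genes had the 2 mice on top in 6 of 15, beside 10.3% of all genes tested. Acta2 was 13.85 in knock-in 3 and 14.06 in wild type 2, against 12.28 to 13.14. Des (11.81 and 12.09, against 12.11 to 12.52) and Rgs5 (9.97 and 10.25, against 9.95 to 11.03) were not raised in them. That list summed to between 14869 and 22368 in knock-in mice and between 15789 and 28399 in wild types. Fibroblast genes had both mice on top in 6 of 12, among them Fbln1 (12.24 and 11.90, against 11.16 to 11.48). The 12 include Tcf21, itself 1 of the markers. The matrix proteoglycans Dcn and Lum were 13.25 and 10.83 in knock-in 3 but 12.94 and 10.45 in wild type 2, where both lay within the range of the other 6 mice. The fibroblast sum ran from 13513 to 19833 in knock-in mice and from 13923 to 16378 in wild types. The part of either list in the level of the markers was not tested.

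Lung epithelium and fat divided the 2 mice. The airway secretory gene Scgb1a1 was 13.44 in knock-in 3, 12.99 in wild type 1, 8.99 in knock-in 4 and 8.31 in wild type 4. In wild type 2 it was 4.46 and not detected. Cyp2f2, also of airway cells, was 9.71 in knock-in 3, 9.32 in wild type 1 and 4.92 in wild type 2. Lyz1 was 13.61, 12.54 and 12.41 in these mice. Knock-in 3 and wild type 2 were the 2 highest mice in 0 of 4 tested lung genes, too few to set apart from 10.3% of all genes. The list summed to 4084 to 25353 in knock-in mice and 4815 to 15206 in wild types. Lyz1, at 12.01 or more in every mouse, is part of these sums. The lowest sum, 4084, was that of knock-in 2, where Scgb1a1 was 4.24, so a sum of this size need not reflect airway transcripts. Of its 14 genes, 11 were detected on at least 1 array, and Cldn18, Ager and Lamp3 on 0. The surfactant genes Sftpc, Sftpb, Sftpa1 and Sftpd, which were not tested, read 47.5, 25.6, 17.9 and 249 in knock-in 3. They read at most 2.98 in wild type 2, and Sftpd read 92.6 in wild type 1. Adipocyte genes were highest in knock-in 3 for all 9 tested, with Adipoq at 11.11, Cfd at 14.31 and Cidea at 11.66. Wild type 2 (9.54, 13.10 and 9.92) had Adipoq and Cidea within the range of the other 6 and Cfd just above their highest value of 13.07. The adipocyte sum was 1765 to 31630 in knock-in mice and 4150 to 11721 in wild types.

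Ventricular myocyte genes differed in level. The ventricular light chains Myl2 and Myl3 lay between 14.21 and 14.61 in all 8 mice and Myh6 between 14.16 and 14.43. These values are near the top of the scale at 14.61. Knock-in 3 and wild type 2 were the 2 highest mice in 0 of 11 ventricular genes, which cannot be set apart from 10.3% of all genes. Of the same list Myh7 (5.37 to 7.61), Irx4 (4.62 to 6.08), Ryr2 (4.77 to 5.77) and Hey2 (4.84 to 5.24) lay in the lower part of the scale. The mean of the ventricular list was 10.07 in knock-in 3 and 10.32 in wild type 2, against 10.29 to 10.64 in the other 6 mice. It was thus lowest in knock-in 3, and its part in the level of the markers was not tested. That list summed to 84501 to 100146 in knock-in mice and 92940 to 104052 in wild types. Of the endothelial genes, 2 of 9 had both mice on top, which cannot be set apart from that share either. Emcn, Flt1 and Esam ran from 10.07 to 10.91 over all mice. Their list summed to 5184 to 6036 in knock-in mice and to 5110 to 6156 in wild types. General epithelial markers were dim, with 0 of 9 tested. The junction gene Cdh1 read 16.8 in knock-in 3 and 10.6 in wild type 2. Of the other keratins only Krt10 was tested, and knock-in 3 (7.95) and wild type 2 (7.83) were its lowest mice, against 8.11 to 8.69.

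**Figure D4:**
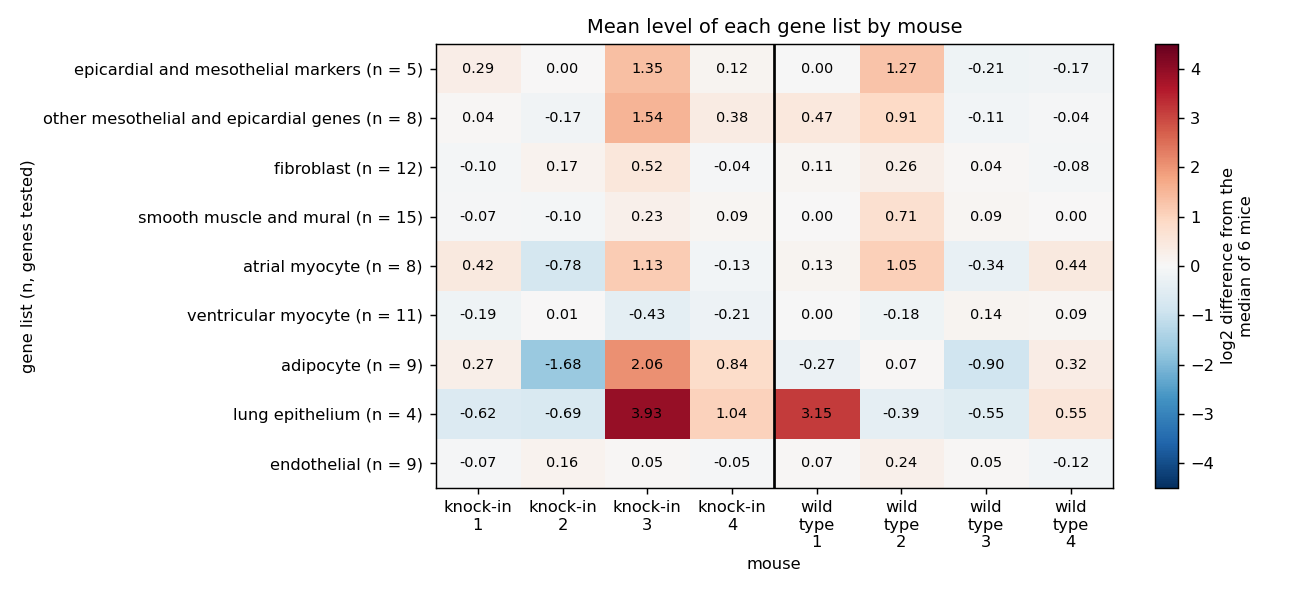
Mean log2 intensity of the tested genes of each list (rows) in each mouse (columns), as the difference from the median of the 6 mice other than knock-in 3 and wild type 2. The markers are at 1.35 in knock-in 3 and 1.27 in wild type 2, the atrial list at 1.13 and 1.05, and the lung list at 3.93 in knock-in 3, -0.39 in wild type 2 and 3.15 in wild type 1.

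Among the 6 other mice, no relation of a marker with a list passed. Over 40 relations of the 5 genes with 8 list means, with exact permutation tests, the smallest adjusted p was 0.558. The smallest exact permutation p that 6 mice allow is 0.00139, too large for 1 relation alone to pass after adjustment over 40. The lack of a pass therefore does not show that relations are absent. For Upk3b, r was 0.54 with the other mesothelial and epicardial list (rho = 0.71) and 0.61 with the atrial list (rho = 0.54). With the adipocyte list it was 0.69 (rho = 0.66) and with the lung list 0.25 (rho = 0.26). Negative values were found with the smooth muscle (-0.24, rho = -0.03), endothelial (-0.52, rho = -0.43) and fibroblast lists (-0.57, rho = -0.60). The ventricular list was at -0.87 (rho = -0.89, exact permutation p = 0.0292, adjusted p = 0.558).

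The genes whose pattern over 8 mice was most like the mean standardised level of the 5 markers had Pearson r between 0.968 and 0.984, as a description. They were Gpx3, a secreted peroxidase, Pdpn, the metalloproteinase inhibitor Timp2, Serpinf1, the collagen hydroxylase subunit P4hb, Cyp2s1, the matrix protein Fbln1 and Tbc1d2b. Over the 7 mice without wild type 2 they were the interferon-induced Irgm2 and Ifitm3, then Cyp2s1, Prkd2, Sirpa, Gpx3, Copz1 and Tbc1d2b, with r between 0.981 and 0.994. The lists of 8 shared 3 genes, Gpx3, Cyp2s1 and Tbc1d2b. Cyp2s1 was 6.78 in knock-in 3 and 6.86 in wild type 2, against 5.05 to 5.55 in the others. Irgm2, in contrast, was 9.64 in knock-in 3 and 8.39 in wild type 2, against 8.13 to 8.75, so it belongs to the profile only where wild type 2 is left out.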

How the data were processed

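Biotinylated cRNA from 8 ventricles was hybridised to Illumina arrays, per the labels' protocols. The deposited table gives, per the file headers, a mean intensity and a detection p-value per probe and array. The intensities are linear and background-subtracted, since 23% to 27.2% of each array's values lie below 0. A second deposited table holds intensity values the authors had normalized, by a method not given in the sources used here, with column medians of 5.01 to 5.04. It keeps each array's rank order (Spearman 1.0000), and it served as an alternative and for ratios and sums. Sums over a list take the brightest probe per gene and count values below 0 as 0.

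Intensities were corrected with limma's normexp (nec, detection p-values, offset 16), quantile normalized and taken to log2, which pulls differences of dim probes towards 0. The filter asked for a detection p below 0.01 in 4 or more of the 8 mice, and the brightest remaining probe stood for each of 8146 genes. Genotypes were compared with lmFit and eBayes, Benjamini-Hochberg adjusted at 0.05. Of 18120 distinct symbols, 12036 were current in RefSeq (GRCm38.p6), 5207 were older names of 1 gene and 877 were kept. The software was limma 3.58.1 under R 4.3.3, with scipy 1.17.1 and matplotlib 3.10.9 under Python 3.11.15. The fit and the permutation test were tested on simulated data.

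The markers and lists were chosen with earlier results of these data known. Genes named are the markers, every detected member of the wider mesothelial list, the 3 brightest tested of each other list, and the 8 with the most similar profile over 8 and over 7 mice. Others named (Cdh1, Sftpc, Sftpb, Sftpa1, Sftpd, Myh7, Irx4, Ryr2, Hey2, and markers detected on 0 arrays) were chosen after their values were seen. The labels call the mice biological replicates. Chip and scan batch were not analysed here. Alternatives changed the normalization (the authors' values among them), the background correction, the filter or the probe used, weighted the arrays, blocked on mouse number or left out a mouse. The fits without both knock-in 3 and wild type 2, and relations with list means, were added after seeing the data. The gene that carries the knock-in allele is not reported here.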

Additional observations from a re-analysis of the deposited data

Results flagged for a closer look

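Dixon's test at the 95% level was run on the highest and the lowest mouse of each genotype, setting the distance to the next mouse against the whole range of the 4. Of 32 groups of 4 mice (8 markers and 8 list means in each genotype), 2 met this. Independent groups would give about 1 in 20, or 1.6, but these groups all draw on the same 8 mice. Both flags were in wild type 2, and the markers and lists had been chosen with earlier results of these data known. The count is therefore a description and cannot be set against 1.6. Msln was 6.20 in wild type 2, against 4.53 to 4.81 in the other wild types, where it was not detected and differences are compressed. The mean of the smooth muscle and mural list was 8.89 in wild type 2, against 8.18 to 8.27. Both are in log2 intensity.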

How the results depend on the processing

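No marker passed the genotype test under any alternative run, and 0 genes passed in all fits but 1. Without both knock-in 3 and wild type 2, a fit chosen after seeing the data, 1 gene passed, Slc4a1 (1.40, adjusted p = 0.0285 with limma), named after its value was seen. With the mouse number as a replicate block 0 genes passed. Deviations of same-numbered mice from their group means correlated at r = -0.22, -0.25, -0.46 and 0.21 for mice 1 to 4. These 4 values show no clear pairing by number and cannot exclude it. With 1 mouse left out Upk3b ran from -0.42 to 0.96, Upk1b from -0.18 to 0.70, Wt1 from -0.14 to 0.43, Krt8 from 0.03 to 0.39, Tcf21 from 0.19 to 0.45, Msln from -0.45 to 0.13, Krt18 from -0.11 to 0.12 and Krt19 from -0.05 to 0.23. With array weights Wt1 was at -0.03, Krt18 at -0.02 and Tcf21 at 0.09 (0.32 without weights), and with median scaling Krt18 was at -0.13. With both mice left out Msln was at -0.06. The second Upk3b probe was at -0.16. No other normalization, background setting or filter run turned the sign of a marker. The number of marker pairs that passed was 3 with cyclic loess and with the authors' values, 3 to 5 with 1 mouse left out (5 without wild type 3) and 1 without both mice. The excess of wild type 2 over the median of the other mice had a median of 0.94 log2 units over the 5 tested markers. This median lay between 0.89 and 1.02 under other scalings and with 1 other mouse left out. The markers themselves differed widely, from -0.23 for Tcf21 to 2.79 for Upk3b. Msln, Krt18 and Krt19 lie close to background, which limits their differences.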
